A study of Mus musculus with 3 samples.

Results

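Endoplasmic reticulum (ER) chaperones and the genes of the unfolded protein response were described on 3 one-colour Agilent whole mouse genome arrays of C2C12 cells, a mouse myoblast line. The set comprised 10 genes taken by name: the chaperones Hspa5, Hsp90b1 and Calr, the chaperone partners Dnajb9 and Sdf2l1, the disulfide enzymes Pdia4 and Pdia6 with their companion Creld2, the transcription factor Xbp1, and Herpud1 of the degradation machinery. These were 10 of the 18354 named genes on the array, and all of their 16 probes were read. Hsp90b1, Pdia6, Calr and Dnajb9 had more than 1 probe, and the other 6 genes had 1 each.

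Each group was 1 array. The first array was of untreated C2C12 myoblasts. The second was of BIO cellulates, which are the mononucleate pieces left when myotubes are split with myoseverin, a microtubule-binding purine, and then given BIO, an indirubin inhibitor of the kinase GSK3. Their myotubes had been formed over 8 days in 2% horse serum, with the antimetabolite AraC at 10 µM from day 2 to day 4 against dividing cells. Myoseverin was applied for 48 h, at 20 µM by the series text and 30 µM by the treatment protocol, and BIO followed 24 h later for 2 days, at 2.5 µM by the sample labels and 10 µM by the protocol and series text. The third array was of neurogenic cellulates, taken through the same steps and then given the purine reversine at 250 nM for 48 h and a neural induction medium with 1.5 µM retinoic acid, with 7 days stated for that medium. Myotubes before splitting and cellulates before BIO were not analysed here. Differentiation, AraC, myoseverin, BIO and time therefore cannot be told apart in the comparisons with myoblasts, nor reversine, medium, retinoic acid and time in the comparison of the 2 kinds of cellulate. With 1 array per group no difference has a replicate check and no test was possible, and the number of cultures behind each array is not given in the sources used here.

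The endoplasmic reticulum is where secreted and membrane proteins are folded, given disulfide bonds and checked before export. When unfolded chains collect there, 3 membrane sensors, IRE1 (gene Ern1), ATF6 and PERK (gene Eif2ak3), are known to be released from the chaperone BiP and to set off the unfolded protein response. IRE1 splices Xbp1 mRNA and ATF6 is cut to a transcription factor, and both raise chaperone and degradation genes. PERK slows translation and favours ATF4, which raises Ddit3 (CHOP), Trib3 and Ppp1r15a. In skeletal muscle the ER is largely specialised as sarcoplasmic reticulum for calcium release, and parts of this response are known to accompany myoblast differentiation.

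ATF6, with the CCAAT-binding factor NF-Y, is known to act through the ER stress response element, which reads CCAAT, 9 bases of any kind and then CCACG. That arrangement was searched on both strands of RefSeq promoters (GRCm38.p6), taken as 250 bases before to 50 bases after each gene's start. All 10 genes had a promoter in the table. The exact element occurred in 39 of 32851 promoters (0.119%) and in those of 5 of the 10 genes. The matches are given here because they are the sequence feature these 5 genes share, with the fixed letters in capitals and 20 bases of flank on each side, read 5′ to 3′ along the element.
Hspa5, chr2:34772005-34772063, plus strand: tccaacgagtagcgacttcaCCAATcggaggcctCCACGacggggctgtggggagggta
Hsp90b1, first copy, chr10:86705618-86705676, minus strand: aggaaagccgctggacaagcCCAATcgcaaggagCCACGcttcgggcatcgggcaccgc
Hsp90b1, second copy, chr10:86705513-86705571, plus strand: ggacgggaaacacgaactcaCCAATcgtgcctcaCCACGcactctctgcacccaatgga
Pdia6, chr12:17266471-17266529, plus strand: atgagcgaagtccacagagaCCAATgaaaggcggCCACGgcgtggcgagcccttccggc
Creld2, chr15:88819500-88819558, minus strand: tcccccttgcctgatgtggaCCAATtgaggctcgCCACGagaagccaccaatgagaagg
Calr, chr8:84847055-84847113, plus strand: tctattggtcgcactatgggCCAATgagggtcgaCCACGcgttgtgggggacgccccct
The far end of the match lay 65 bases before the start of Hspa5, 212 bases before that of Hsp90b1 for its first copy, with the second copy nearer the start, 98 before Pdia6, 126 before Creld2 and 162 before Calr.

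Without the last letter of the element, CCAAT, 9 bases and CCAC occurred in 120 promoters (0.365%), and Pdia4 and Herpud1 joined, which made 7 of the 10 genes. Herpud1 also held the second form of the element, ATTGG and CCACG separated by 1 base, found in 12 promoters (0.0365%). On the opposite strand Herpud1 held TGATGCAA, a core of the amino acid response element bound by ATF4 and its partners, found in 294 promoters (0.895%). The 130 bases before the start of Herpud1 are shown because they hold these 3 matches, in capitals and in that order from the start site outwards: the element without its last letter, the second form, and TGATGCAA, which reads TTGCATCA on this strand.
Herpud1, chr8:94386299-94386428, plus strand: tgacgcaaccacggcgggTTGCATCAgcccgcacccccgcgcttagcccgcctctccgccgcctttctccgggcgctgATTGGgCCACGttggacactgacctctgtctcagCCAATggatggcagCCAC
The core TGACGTGG, which XBP1 is known to bind, occurred in 222 promoters (0.676%) and in none of the 10 genes. CCAAT alone, which is part of the elements above, occurred in 12289 promoters (37.4%) and in 9 of the 10 genes, all but Xbp1. A match is a description of letters in these windows and says nothing of binding in these cells.

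All 3 arrays lay on 1 slide and shared a scan. Between 45.7% and 50.7% of the 43379 non-control spots were well above background and none was saturated. A level below is the log2 of a probe's background-subtracted intensity over that array's 75th percentile, so a level of 0 is the 75th percentile, and differences are in log2 units. Where a gene had several probes, the brightest stands for it. All 10 genes were well above background on all 3 arrays through that probe, so no gene dropped out at this filter, and 2 of the 16 probes, both of Dnajb9, were well above background on no array. Probes spotted 10 times on an array had a standard deviation between spots of 0.18 (127 probes), 0.15 (117 probes) and 0.12 (124 probes) in myoblasts, BIO cellulates and neurogenic cellulates. From these, taking a normal spread, 95% of the differences between spots of a probe would fall within 0.46 for BIO cellulates against myoblasts, 0.38 for neurogenic against BIO cellulates and 0.42 for neurogenic cellulates against myoblasts. These limits cover spots on these arrays and not the spread between cultures.

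Among the chaperones, Hspa5 (NM_022310) encodes BiP, the ATP-driven chaperone that holds unfolded chains and the stress sensors. Its level was 7.47 in myoblasts, 7.51 in BIO cellulates and 7.73 in neurogenic cellulates. The 3 levels lay within the limits for repeat spots of each other, with log2 differences of 0.05, 0.22 and 0.26 for BIO cellulates against myoblasts, neurogenic against BIO cellulates and neurogenic cellulates against myoblasts. The signs of both differences from myoblasts turned under 2 of 9 other ways of processing the arrays, to -0.67 and -0.47 with scaling on the array median and to -0.28 and -0.09 with normexp background correction.

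Hsp90b1 (NM_011631) encodes GRP94, the ER form of HSP90, which folds a narrow range of client proteins. Its brighter probe had levels of 3.19, 2.22 and 2.40 in myoblasts, BIO cellulates and neurogenic cellulates. Its second probe had levels of 1.64, 0.23 and 1.44 in the same order. Both probes were lowest on the BIO array, by 0.97 (1.96-fold) and 1.40 (2.64-fold) against myoblasts. They disagreed on the neurogenic array, where the brighter probe stayed 0.79 below myoblasts and the second was 0.19 below. Against BIO cellulates the second probe was 1.21 higher (2.31-fold) and the brighter one 0.18 higher.

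Calr (NM_007591) encodes calreticulin, a calcium-binding chaperone that holds glycoproteins by their sugar. Its brighter probe stepped down across the arrays, with levels of 7.31, 6.97 and 6.48. The second probe read 4.29, 4.41 and 3.94, lowest on the neurogenic array as well. Neurogenic cellulates were 0.83 lower than myoblasts (1.78-fold) by the brighter probe and 0.35 lower by the second, which lies within the limits for repeat spots. The probes had opposite signs in BIO cellulates against myoblasts, -0.34 and 0.12, both within those limits. Against BIO cellulates they were alike, 0.49 and 0.47 lower.

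**Figure D1:**
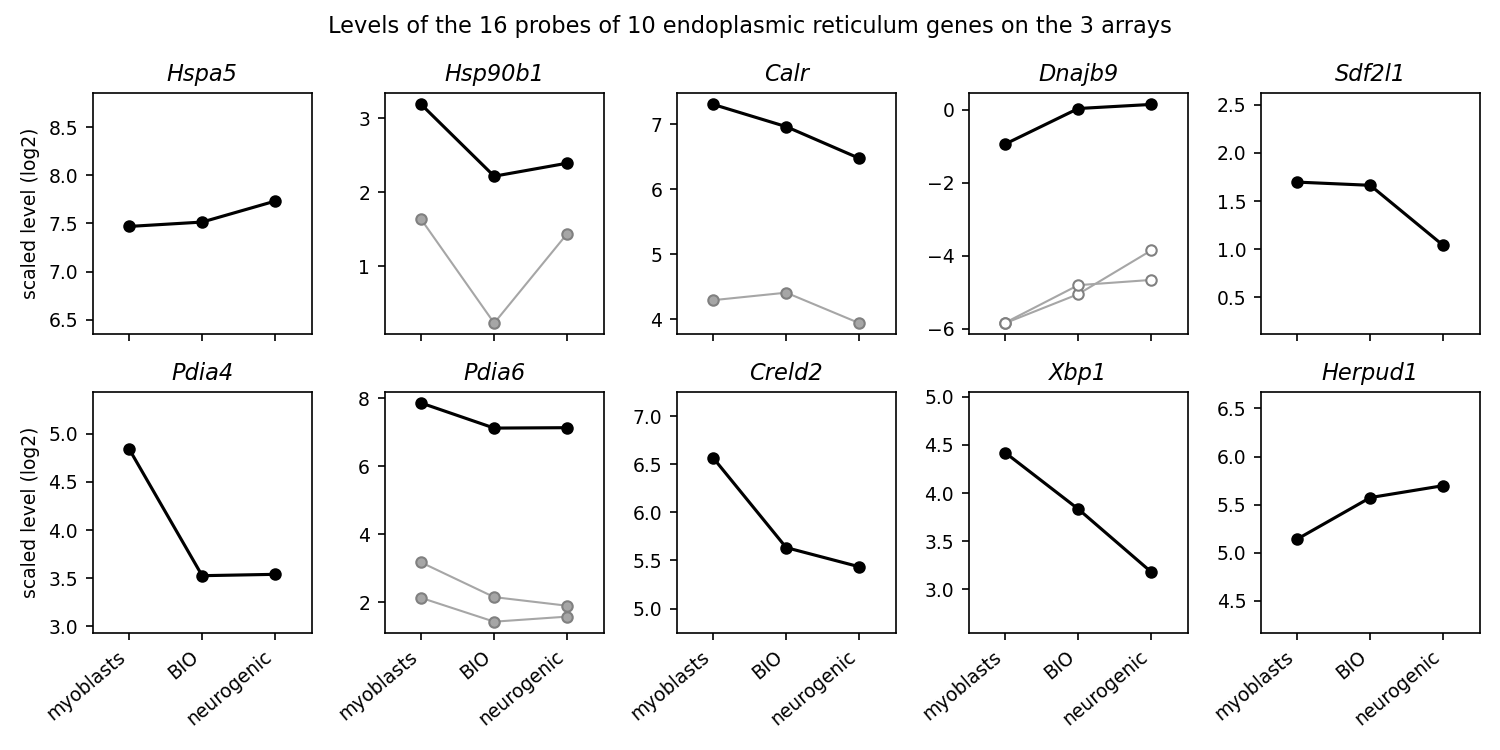
Levels of the 10 genes on the 3 arrays. The vertical axis is the log2 intensity over the array's 75th percentile, on its own range for each gene, and the horizontal axis gives the 3 arrays, with 1 array per group and no error bars. Black points are the probe that stands for the gene, grey points its other probes, and open points are not well above background. Pdia4 drops from 4.84 in myoblasts to 3.53 and 3.54 in the cellulates, while Dnajb9 goes from -0.94 to 0.03 and 0.14.

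Of the chaperone partners, Dnajb9 (NM_013760) encodes ERdj4, a J protein that works with BiP and is known to restrain IRE1. It had the opposite course to most of the set. The probe that was measured had a level of -0.94 in myoblasts, 0.03 in BIO cellulates and 0.14 in neurogenic cellulates. Both cellulate arrays lay above myoblasts, by 0.97 (1.96-fold) and 1.08 (2.12-fold), and differed from each other by 0.11. Its intensity in myoblasts was 94.0 units, where the other 2 probes, at 3.14 and 3.17 units, were not well above background.

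Sdf2l1 (NM_022324) encodes a small ER protein that assists BiP and its J proteins. Its levels were 1.70, 1.66 and 1.04. Myoblasts and BIO cellulates were alike within the limits for repeat spots, with a difference of -0.03 whose sign turned under 4 of 9 alternatives, and the neurogenic array was lower than both. The differences were 0.66 from myoblasts (1.58-fold) and 0.62 from BIO cellulates (1.54-fold), each beyond those limits. With spike-in scaling they were -0.23 and -0.27, within them, as was the difference from myoblasts with the percentile over probes well above background (-0.33) and with the median of genes of like intensity, the local median, subtracted (-0.38).

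In the disulfide group, Pdia4 (NM_009787) encodes ERp72, an isomerase with several thioredoxin domains. Its levels were 4.84 in myoblasts, 3.53 in BIO cellulates and 3.54 in neurogenic cellulates. Both cellulate arrays were lower, by 1.32 (2.49-fold) and 1.30 (2.47-fold), and they differed from each other by 0.01. Under 9 other ways of processing the arrays the first difference ranged from -2.03 to -1.11 and the second from -2.03 to -0.88.

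Pdia6 (NM_027959) encodes P5, an isomerase that binds BiP. Its brightest probe had levels of 7.86, 7.12 and 7.14. The others read 3.17, 2.15 and 1.90, and 2.13, 1.43 and 1.58. All 3 probes were lower on both cellulate arrays than in myoblasts: by 0.74, 1.02 and 0.70 in BIO cellulates and by 0.73, 1.27 and 0.55 in neurogenic cellulates, in that order of probes. Between the cellulate arrays they lay within the limits for repeat spots, from -0.25 to 0.15.

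Creld2 (NM_029720) encodes a cysteine-rich, EGF-like protein of the ER with isomerase activity that is a known target of ATF6. Its levels were 6.57, 5.63 and 5.43. Both cellulate arrays lay below myoblasts, by 0.93 (1.91-fold) and 1.13 (2.19-fold), and the step between them, -0.20, was within the limits for repeat spots and turned sign under 3 of 9 alternatives.

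Xbp1 (NM_013842), the factor whose mRNA IRE1 splices, was read by 1 probe that gives no measure of splicing. Its levels stepped down from 4.42 in myoblasts to 3.83 in BIO cellulates and 3.18 in neurogenic cellulates. Each step exceeded the limits for repeat spots, at 0.59 (1.50-fold) and 0.65 (1.57-fold), and the whole difference was 1.24 (2.36-fold). The first step lay within them, from -0.41 to -0.40, with quantile normalisation, the percentile over probes well above background and the local median subtracted, and the second, -0.30, with spike-in scaling.

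Herpud1 (NM_022331) encodes a membrane protein that recruits the HRD1 ubiquitin ligase complex for ER-associated degradation. Its levels went the other way, at 5.14, 5.57 and 5.70. Neurogenic cellulates were 0.56 higher than myoblasts (1.47-fold), beyond the limits for repeat spots, and BIO cellulates 0.43 higher, within them. With each array scaled to its median the signs turned, to -0.18 in neurogenic cellulates and -0.29 in BIO cellulates.

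**Figure D2:**
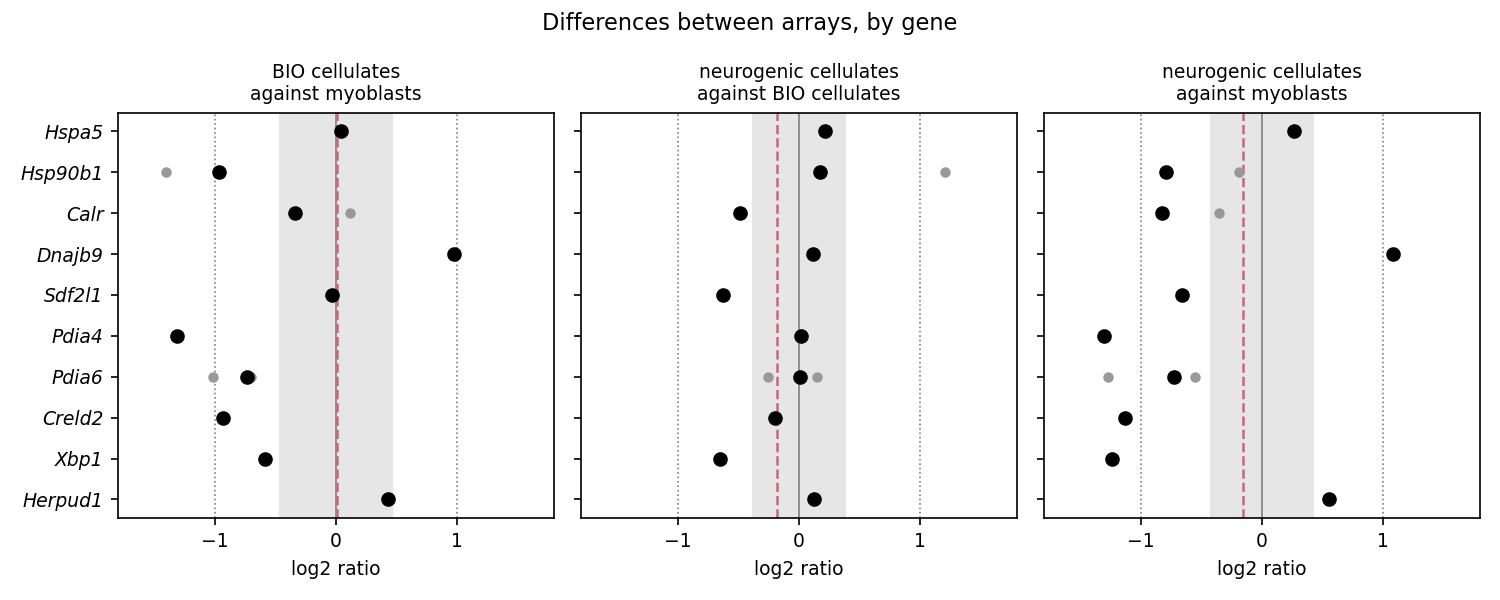
Log2 ratio of each gene in the 3 comparisons. Black points are the probe that stands for the gene and grey points its other probes well above background, the grey band is the 95% range of differences between repeat spots, dotted lines mark 2-fold, and the dashed line is the median of all measured genes. Pdia4 lies beyond 2-fold in both comparisons with myoblasts, and no black point does so between the 2 kinds of cellulate.

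In BIO cellulates against myoblasts, Pdia4 was at least 2-fold lower, with Hsp90b1 (-0.97), Creld2 (-0.93), Pdia6 (-0.74) and Xbp1 (-0.59) next below it. Dnajb9 was the member farthest above 0, at 0.97. At the 2-fold threshold 1 of the 10 genes was lower and 0 were higher, against 6.12% of 11184 measured genes lower and 8.42% higher. The median of the 10 genes was -0.46, beside 0.01 over all measured genes, and 7 of the 10 were below 0, as were 49.3% of all. Past the limits for repeat spots 5 of the 10 were lower and 1 higher, where 21.0% of all genes were lower and 24.3% higher. Hsp90b1, Pdia4, Pdia6 and Creld2 stayed beyond them under all 9 alternatives, and Xbp1 and Dnajb9 did not. The count at 2-fold depended on how the arrays were scaled: with the array median it was 6 lower, and with normexp correction 3.

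By the probe that stands for each gene, neurogenic cellulates against BIO cellulates gave small differences. The second probe of Hsp90b1, which does not stand for it, was 1.21 higher (2.31-fold). None of the 10 genes was at least 2-fold higher or lower, where 2.45% of 10878 measured genes were higher and 1.41% lower. Xbp1, Sdf2l1 and Calr were lower beyond the limits for repeat spots, by 0.65, 0.62 and 0.49, and the other 7 lay within them, where 25.7% of all genes were lower and 10.2% higher beyond those limits. None of these 3 stayed beyond them under all 9 alternatives. The median was 0.01, beside -0.18 over all measured genes.

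Set against myoblasts, neurogenic cellulates had Pdia4, Xbp1 and Creld2 at least 2-fold lower and Dnajb9 at least 2-fold higher. That is 3 of 10 lower and 1 of 10 higher, against 11.0% and 9.35% of 10888 measured genes. The median was -0.76, beside -0.15 over all measured genes. Past the limits for repeat spots 7 were lower and 2, Dnajb9 and Herpud1, were higher, with Hspa5 alone within them, where 34.4% of all genes were lower and 23.1% higher. Under all 9 alternatives 3 of the 7, Pdia4, Creld2 and Xbp1, stayed beyond the limits, and neither of the 2 higher genes did. The 3 genes lower at 2-fold became 0 with the 75th percentile taken over probes well above background, with quantile normalisation and with spike-in scaling, and 7 with the array median, while the members' median stayed below 0 in each. Dnajb9 was no longer at least 2-fold higher with the array median (0.35) or normexp correction (0.72). The 3 comparisons share arrays, and neurogenic cellulates against myoblasts is the sum of the other two, so they are not separate evidence of a direction.

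**Figure D3:**
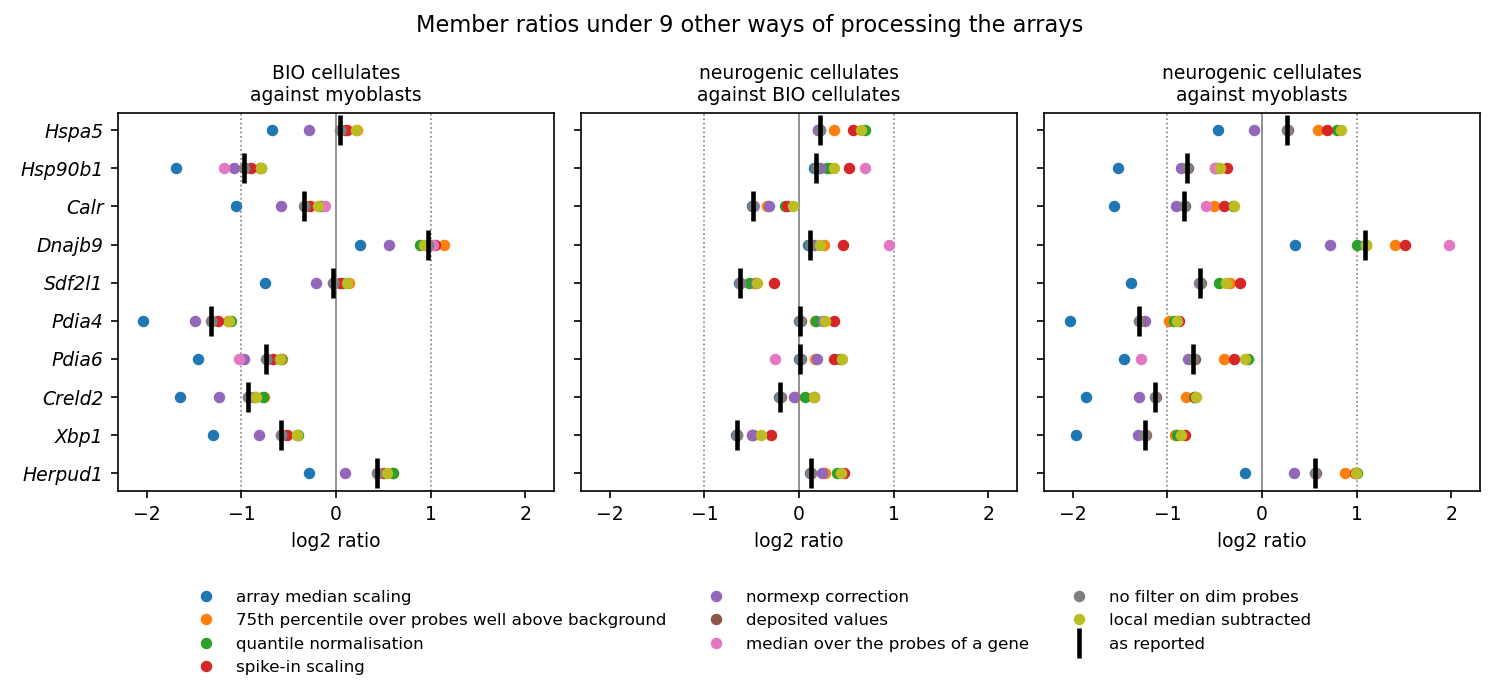
Log2 ratio of each gene as reported (black bar) and under 9 other ways of processing the arrays (coloured points), with dotted lines at 2-fold. Pdia4 stays beyond 2-fold lower in BIO cellulates under each of them, from -2.03 to -1.11, whereas Hspa5 and Herpud1 lie on both sides of 0 in the comparisons with myoblasts.

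Other genes of the pathway were read from 9 lists of 180 genes, ordered by role. The lists are set beside the members by counts and medians, not tests. Their counts at 2-fold stand beside 6.12% of all measured genes lower and 8.42% higher in BIO cellulates against myoblasts. For neurogenic cellulates against myoblasts these shares were 11.0% and 9.35%. Among 22 measured ER chaperones and folding cofactors outside the set, 17 were below 0 in BIO cellulates against myoblasts, with a median of -0.37. The collagen chaperone gene Serpinh1 was the 1 of them at least 2-fold lower (-1.17) and 0 were higher. The partners of the members had mixed values: the BiP exchange factor gene Hyou1 was at -0.59, the J protein gene Dnajc3 at -0.31, Manf at -0.27, the exchange factor gene Sil1 at -0.02, and Canx, the membrane-bound counterpart of calreticulin, at 0.42. In neurogenic cellulates against myoblasts the median was -0.54, with 3 of 20 at least 2-fold lower, namely the prolyl isomerase genes Fkbp7 (-1.21), Ppic (-1.12) and Fkbp11 (-1.04), and 1 higher, Bag5 (1.04), which encodes a mainly cytosolic HSP70 partner.

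Of the other disulfide enzymes, 3 of 12 were at least 2-fold lower in BIO cellulates against myoblasts and 0 higher, beside 6.12% and 8.42% of all measured genes. The list's median was -0.13 and turned to 0.05 with the percentile over probes well above background. The 3 lower genes were the isomerase genes Pdia5, whose level went from 3.81 to 1.65, and Txndc5, from 3.79 to 2.32, and the ER peroxiredoxin gene Prdx4, from 7.57 to 6.01. Neurogenic levels were 1.27 for Pdia5, 2.55 for Txndc5 and 5.15 for Prdx4, so all 3 were also at least 2-fold below myoblasts there, by 2.54, 1.24 and 2.42. Of 14 genes measured in neurogenic cellulates against myoblasts these 3 were lower and 3 were at least 2-fold higher: Erp29 (4.20), Creld1 (1.39), a relative of Creld2, and Txndc12 (1.12). The median there was -0.02, beside -0.15 over all genes. Erp29 and Txndc12 were dim in myoblasts, at -2.99 and -2.59, where the dimmest spot called well above background was at -3.73. Erp29 and P4hb, a luminal ER protein and the founding isomerase of the family, were well above background on the neurogenic array, while P4hb was not so on either of the others and Erp29 not on the BIO array. Each had 1 probe. Against BIO cellulates these are bounds, at least 15.4-fold higher for Erp29 and at least 5.45-fold higher for P4hb, taken from the dimmest spot called well above background on the BIO array.

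Most ER stress sensors were less than 2-fold different. Ern1 levels were -0.46, -0.26 and 0.15 in myoblasts, BIO cellulates and neurogenic cellulates, and Atf6 levels 0.89, 1.23 and 1.55. Eif2ak3 was not well above background on any array. Mbtps1, the protease gene whose product starts the cutting of ATF6, was at 4.29, 2.91 and 3.38, at least 2-fold lower in BIO cellulates (-1.38), and it was the 1 of 9 measured sensors or processing enzymes past that threshold. For neurogenic cellulates against myoblasts that 1 gene was Creb3l2 (-1.35).

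The PERK-ATF4-CHOP arm lay on the other side of the set. In BIO cellulates 5 of 12 measured genes were at least 2-fold higher than in myoblasts and 0 lower, with a median of 0.66, beside 8.42% of all measured genes higher. Bbc3 (-0.97) and Cebpg (-0.21) were the members of the list below 0. The 5 became 1 higher and 1 lower with array median scaling and 2 higher and 1 lower with normexp correction. Atf3, a stress-induced factor gene, had levels of -1.63, 0.49 and 1.00 on the 3 arrays. Ddit3, encoding CHOP, had 3.74, 5.16 and 5.95. Trib3, encoding a pseudokinase that binds ATF4 and CHOP, had -0.27, 0.84 and 1.46. These 3 genes were highest on the neurogenic array, where 6 of 13 were at least 2-fold above myoblasts and 0 below, with a median of 0.93, beside 9.35% of all genes higher. That 6 ranged from 2 with array median scaling to 9 with spike-in scaling. Ppp1r15a, whose product helps remove the phosphate that PERK places, had -0.68, 0.63 and 0.61, and Nupr1, a stress-induced chromatin protein gene, had 6.06, 7.12 and 7.60. Atf4 itself was at 5.99, 6.30 and 6.47. Relative to the median of all genes, the list lay 0.65 above and the 10 members 0.47 below in BIO cellulates against myoblasts, which no scaling by a constant changes. With the array median as the scale the list's own median was -0.06, so its sign turned.

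ER-associated degradation stayed near the median of all genes. Of 26 measured genes 0 were at least 2-fold different in BIO cellulates against myoblasts, with a median of 0.01, and 1, the ubiquitin-conjugating enzyme gene Ube2j1 (-1.02), was lower in neurogenic cellulates. The partners of Herpud1 in the HRD1 complex, Syvn1 and Sel1l, were at 5.68, 5.68 and 5.59 and at 2.22, 2.32 and 2.95.

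Genes of entry into the ER had a median of -0.42 in neurogenic cellulates against myoblasts, beside -0.15 over all measured genes. At the 2-fold threshold 5 of 24 were lower and 0 higher, beside 11.0% and 9.35% of all genes. Sec61b, a subunit of the translocon, had levels of 6.44, 5.29 and 4.65. The channel gene Sec61a1 (-1.05), Ssr1 (-1.26) and Ssr2 (-1.24) of the translocon-associated complex, and Tram1 (-1.12) made up the rest. The 5 became 1 with quantile normalisation, spike-in scaling and the percentile over probes well above background. The list's median became 0.02 with quantile normalisation, which is 0.04 above that of all genes, and 0.01 with spike-in scaling. In N-glycosylation 3 of 22 were lower there (Gfpt1 -1.61, Ostc -1.19 and Stt3a -1.01) and 1 higher, the oligosaccharyltransferase gene Ddost (2.67), with a median of -0.40 that turned to 0.02 with spike-in scaling. Ddost, read by 1 probe, was dim in myoblasts, at -2.86. In BIO cellulates against myoblasts 1 gene of each list was at least 2-fold lower, Sec61b (-1.15) and Gfpt1 (-1.11), and 0 were higher.

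The 5 measured EF-hand proteins of the ER lumen were all below 0 in BIO cellulates against myoblasts, with a median of -0.60 and 0 past 2-fold. Rcn3 (-1.34) and Calu (-1.11) were, in neurogenic cellulates against myoblasts, at least 2-fold lower. Chaperones of the cytosol and mitochondria, read as a comparison for the ER chaperones, had a median of -0.25 with 0 of 24 past 2-fold in BIO cellulates, and -0.67 with 6 lower and 0 higher in neurogenic cellulates, both against myoblasts. Of all measured genes 11.0% were lower and 9.35% higher in neurogenic cellulates against myoblasts. The largest of these 6 in size were the J protein gene Dnajb1 (-1.31), Hspe1 (-1.27), Cct5 (-1.23) and Cct2 (-1.18). The list thus lay 0.51 below the median of all genes in that comparison, where the 10 ER genes lay 0.61 below it, and the difference between the lists was not tested. Between the 2 kinds of cellulate, 1 measured gene of the 9 lists was past 2-fold, Sec61g (1.18), beside 6 genes with a bound of at least 2-fold. Of all measured genes 2.45% were higher and 1.41% lower in that comparison.

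Few of these list genes were past 2-fold however the arrays were processed. The share of all genes that stay past 2-fold in every setting is not given here, so the counts below cannot be read against the rest of the array. Of 7 other settings each, all kept 4 of the 7 genes lower in BIO cellulates against myoblasts (Pdia5, Txndc5, Prdx4 and Mbtps1) and 1 of the 5 higher, Atf3. Against myoblasts, neurogenic cellulates kept 4 of 24 lower (Pdia5, Prdx4, Sec61b and Gfpt1) and 4 of 11 higher (Erp29, Ddit3, Atf3 and Ddost) in all of them. Of these, Erp29 and Ddost rest on dim values in myoblasts.

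**Figure D4:**
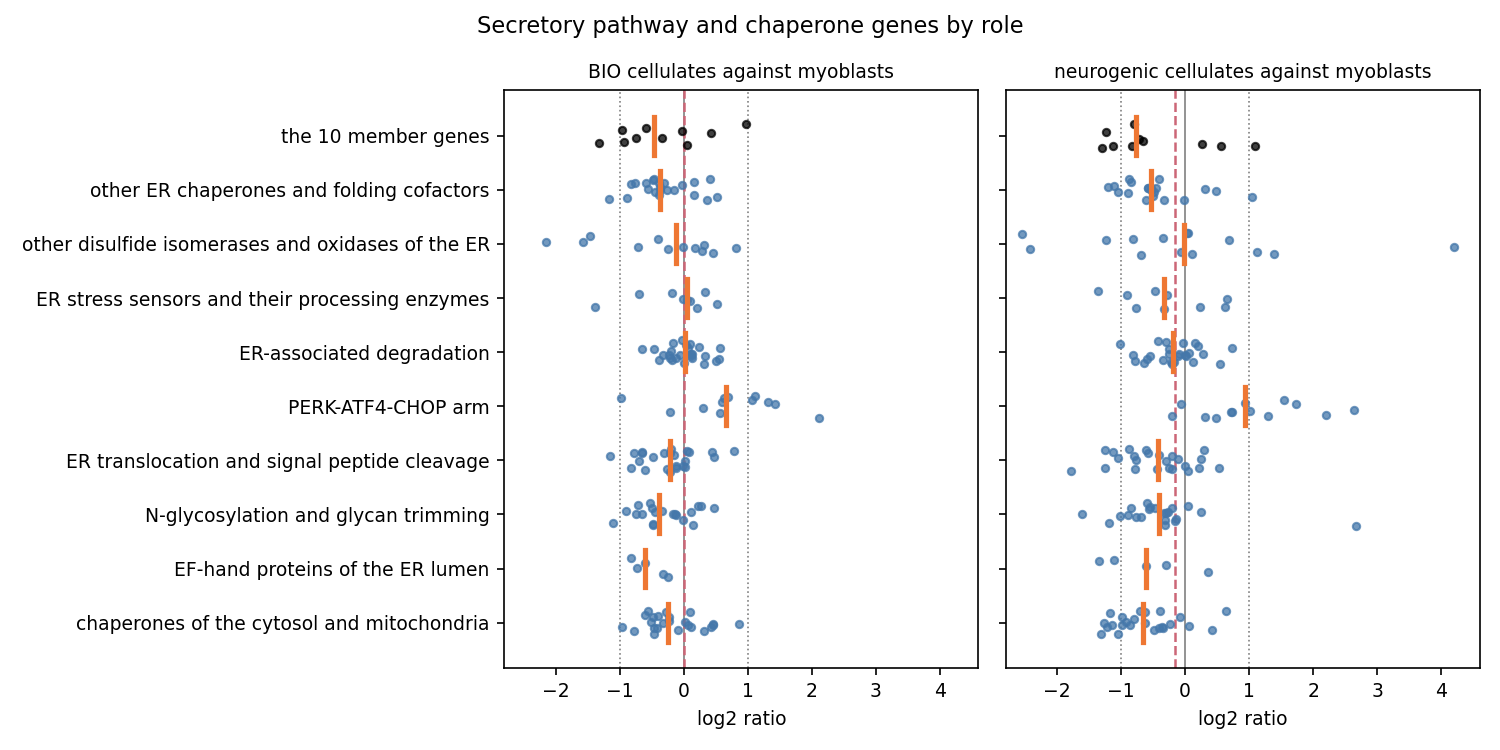
Log2 ratios of the 10 genes (black) and of the other lists (blue) in BIO and in neurogenic cellulates against myoblasts. Each point is a gene well above background on both arrays, the orange bar is the list's median, dotted lines mark 2-fold, and the dashed line is the median of all measured genes. The PERK-ATF4-CHOP arm has medians of 0.66 and 0.93, and the 10 genes -0.46 and -0.76.

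Markers of cell state were read on the same arrays. Summed over the 11 terminal muscle genes, the level was 220 times the array's 75th percentile in myoblasts, 3997 in BIO cellulates and 3214 in neurogenic cellulates, with all 11 well above background on the first and second arrays and 10 on the third. Summed over the 6 proliferation genes it was 160, 19.6 and 17.8, with 5, 5 and 6 well above background, and Mki67 had levels of 3.79, 0.83 and 1.63. The 5 measured on both arrays were all at least 2-fold lower in each comparison with myoblasts. Top2a went the other way: it was well above background on the neurogenic array alone, at -2.43, at least 2.46-fold above myoblasts. The 8 myogenic genes summed to 196, 157 and 230, with Myod1 and Myog well above background on every array and Myf5 on none. Most of each sum was Cdh15 and Myog, and Myog had levels of 5.75, 6.06 and 6.88. Cdh15, an adhesion protein gene with levels of 7.07, 5.97 and 5.37, was the 1 of 7 measured genes below 0 in BIO cellulates against myoblasts. The median of the 7 in that comparison was 0.56. Des, the muscle intermediate filament gene, had levels of -0.97, 2.64 and 3.24, the integrin gene Itga7 1.48, 4.00 and 5.20, and Vcam1 1.15, 1.71 and 4.49. Fewer cells of a type and less RNA per cell cannot be told apart in such arrays. Of the 9 neuronal genes 5, 6 and 4 were well above background, with sums of 11.1, 6.78 and 6.43, and Nefl and Snap25 were so on no array. The 6 neural progenitor genes summed to 109, 185 and 147, with Sox2 and Neurod1 well above background on none. Glial genes summed to 1.94, 2.00 and 1.72, adipocyte genes to 2.34, 7.63 and 3.30, and osteoblast and chondrocyte genes to 2.48, 2.81 and 2.39. The adipocyte sum was mostly Lpl, with levels of 0.69, 2.74 and 1.07, and Adipoq, Cfd and Fabp4 were well above background on no array. Genes of professional secretory cells, which are rich in ER, summed to 0.45, 0.83 and 0.69, with Jchain, Prdm1, Irf4 and Amy2a5 well above background on no array. The part of these cell states in the values of the 10 genes was not tested.

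The ratios of all genes moved with the intensity of their probes. Genes within 0.5 log2 of the mean level of each of the 9 genes other than Dnajb9 had medians between -0.19 and -0.09 in BIO cellulates against myoblasts and between -0.57 and -0.28 in neurogenic cellulates against myoblasts. Around Dnajb9 the same medians were 0.04 and -0.02. With that local median taken off, the members' median in neurogenic cellulates against myoblasts was -0.34 and 0 of 10 genes remained at least 2-fold lower. Pdia4 remained at least 2-fold lower in BIO cellulates.

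The median course of the 10 genes over the arrays was common. The nearest of 10510 genes, by distance over the 3 centred levels, were Cyp2c37, Pelo, Sec16a, Tmem52 and Olfr1410, each within 0.008 log2, and 1673 genes (15.9%) lay within 0.25 log2. Likeness over 3 arrays says little about any 1 of them.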

How the data were processed

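One array was made for each of 3 groups, taken from the sample labels, with 200 ng of RNA labelled with Cy3 per the labels' protocols. Array design 014868 (mm9) was read with Feature Extraction 10.7.3.1 from Agilent, per the file headers, which gives each spot a background-subtracted intensity on a linear scale. The authors' deposited table holds log2 values that equal the log2 of those intensities plus a constant per array (0.00 in myoblasts, 0.67 in BIO cellulates and 0.23 in neurogenic cellulates, for 100% of single-spot probes within 0.01), with column medians of 7.42, 7.77 and 7.88. They are not centred by gene, and why the constants are not exactly the differences in 75th percentile (0, 0.66 and 0.22) is unknown.

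Control spots and outlier spots were left out, repeat spots averaged, and each array's log2 75th percentile (181, 115 and 156 intensity units) subtracted. Of 41174 probes 26923 were named by RefSeq accession through the GRCm38.p6 gene table, giving 18354 genes, and 14251 stayed unnamed. The probe with the highest mean stood for a gene. Counts took genes well above background on both arrays compared and a ratio of at least 2-fold. A bound sets the bright array against the dimmest spot called well above background on the other. Levels of different probes were not compared. No test was run, since each group had 1 array. The ratio, count and median code was checked on simulated data. The 10 genes and all lists were chosen with earlier results of these data known. All 10 genes are named, and of each list the genes at least 2-fold different, up to 4 in each direction, along with the members' textbook partners. Alternatives were 4 other scalings, normexp correction (offset 50, on median spot signals, since mean signals were not used here), the deposited values, the median over a gene's probes, a 1.5-fold threshold, no filter on dim probes and, added after the data were seen, a local median subtracted. Tools were Python 3.11.15, pandas 2.3.3, numpy 2.4.6, matplotlib 3.10.9, R 4.3.3 and limma 3.58.1.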

Additional observations from a re-analysis of the deposited data

How the results depend on the processing

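No paired analysis was possible because each group had 1 array. No member at least 2-fold different changed sign under any alternative that was run, and the members' median stayed below the median of all genes in both comparisons with myoblasts, by 0.30 to 0.73 in BIO cellulates and 0.36 to 0.94 in neurogenic cellulates. The counts were less stable. Those at 1.5-fold are given without the share of all genes at that threshold, so they cannot be read against the rest of the array. In BIO cellulates against myoblasts the 1 gene lower became 6 with array median scaling, 3 with normexp correction, 3 with the median over probes and 5 at 1.5-fold, and the 0 genes higher became 1 with the 75th percentile over probes well above background, 1 with spike-in scaling, 1 with the median over probes and 1 at 1.5-fold. Array median scaling moved the members' median there from -0.46 to -1.18. Between the cellulates, 2 genes were lower at 1.5-fold, and the median of 0.01 became 0.37 with spike-in scaling and 0.25 with the local median subtracted. In neurogenic cellulates against myoblasts the 3 genes lower became 7 with array median scaling, 7 at 1.5-fold, and 0 with the percentile over probes well above background, quantile normalisation, spike-in scaling and the local median subtracted. The 1 gene higher became 2 with quantile normalisation and 0 with array median scaling and normexp correction. The median of -0.76 became -1.49 with array median scaling, -0.43 with the percentile over probes well above background, -0.38 with quantile normalisation, -0.33 with spike-in scaling and -0.34 with the local median subtracted. The cause of these moves was not tested beyond the shift each scaling gives to all genes. That shift was -0.72 in BIO cellulates and -0.73 in neurogenic cellulates, both against myoblasts, with array median scaling, and 0.43 in neurogenic cellulates against myoblasts and 0.36 against BIO cellulates with spike-in scaling. It was 0.33, 0.17 and 0.15 in neurogenic cellulates against myoblasts, BIO cellulates against myoblasts and neurogenic against BIO cellulates with the percentile over probes well above background. The share of higher genes among all at least 2-fold different, 57.9% in BIO cellulates against myoblasts, went to 5.78% (array median), 73.7% (percentile over probes well above background), 26.2% (normexp) and 81.0% (no filter on dim probes). In neurogenic cellulates against myoblasts 45.9% went to 6.71%, 74.4%, 26.0% and 76.9% in the same order, 80.9% with spike-in scaling and 59.1% with the median over probes. Between the cellulates 63.5% went to 78.2% with the percentile over probes well above background and 90.6% with spike-in scaling. Counts over all genes moved with them, for example from 685 lower to 3423 in BIO cellulates and from 1198 lower to 4686 in neurogenic cellulates with array median scaling, and from 942 higher to 4387 and from 1018 higher to 5118 with no filter. Of the members' single values, 16, 27 and 54 of 90 moved by more than 1 standard deviation of the difference between repeat spots (0.24, 0.19 and 0.21 log2) in BIO cellulates against myoblasts, neurogenic against BIO cellulates and neurogenic cellulates against myoblasts. The filter on dim probes left the members' values as they were, and the deposited values differ from those reported by a constant. The median over a gene's probes draws Dnajb9 from probes that are not well above background. Array median scaling rests on signal near background, since the medians were 17.1, 17.9 and 24.4 intensity units and the lowest intensities well above background 13.6, 17.3 and 26.2. Precision is limited by there being 1 array per group. Differences up to 1.38-fold (BIO cellulates against myoblasts), 1.30-fold (between the cellulates) and 1.34-fold (neurogenic cellulates against myoblasts) lie within the 95% limits of repeat spots.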

Other observations

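Other genes whose promoters hold the exact ER stress response element had ratios on both sides of 0. Of 32 such genes outside the set, 18 had a probe and 13 were well above background on both arrays in BIO cellulates against myoblasts. There 0 were at least 2-fold lower and 1 was higher, Acacb (1.40), which encodes the muscle form of acetyl-CoA carboxylase, against 6.12% and 8.42% of all measured genes. The median was 0.12, beside 0.01 over all genes. Among those with a role in the ER, Canx was at 0.42, Calr4 at 0.43, Alg12 at 0.08, Syvn1 at -0.00 and Dnajc3 at -0.31. In neurogenic cellulates against myoblasts the median was -0.10, with 2 of 12 lower, Spats2l (-1.66) and Hnrnpa3 (-1.06), and 1 higher, Acacb (1.52). Within the set, the 5 genes with the exact element ranged from -0.97 (Hsp90b1) to 0.05 (Hspa5) in BIO cellulates against myoblasts and the 5 without it from -1.32 (Pdia4) to 0.97 (Dnajb9).

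Several abundant ER genes were well above background on the neurogenic array and not on the BIO array. Besides Erp29 and P4hb, these were the oligosaccharyltransferase genes Rpn1 (at least 8.69-fold higher) and Ddost (at least 5.85-fold higher) and the thioredoxin-like gene Txndc12 (at least 2.40-fold higher), as was the cytosolic cochaperone gene Bag3 (at least 3.23-fold higher). Rpn1 had 3 probes, of which 2 were well above background on the neurogenic array and none on the others, and each other gene had 1. Erp29, Ddost and Txndc12 were also well above background on the myoblast array, and P4hb, Rpn1 and Bag3 were not. Over all genes 347 were well above background on the neurogenic array alone, 311 on the BIO array alone and 936 on the myoblast array alone. Erp29, Ddost and Txndc12 are not among the 347, and the wider pattern was not counted over all genes.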
